A study of Homo sapiens with 45 samples.

Results

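The genes examined here were ARID1A, ARID1B, SMARCA4 and SMARCA2, the 4 chromatin remodelling subunits that the guides and the inhibitor of the study were aimed at. They were taken by symbol, 4 of the 38557 genes in each of 2 deposited expression tables, and followed through all 45 RNA-seq libraries. The libraries came from 4 human T-cell acute lymphoblastic leukaemia (T-ALL) lines and formed 15 groups of 3. Jurkat, a T-ALL line that carried Cas9 for the guide experiments, gave 9 groups. In 5 of these a lentivirus brought in guides to ARID1A (gARID1A), to ARID1A and ARID1B (gARID1A_1B), to SMARCA4 (gSMARCA4), to SMARCA4 and SMARCA2 (gSMARCA4_A2), or to the AAVS1 safe-harbour locus (gAAVS1, the control). Puromycin was given for 4 days in all 5 groups, the control included, and RNA was taken on day 10. The 4 remaining Jurkat groups had 1 uM BRM014 for 6 h, 1 uM BRM014 for 8 d, 0.01% DMSO for 6 h or 0.01% DMSO for 8 d. CCRF-CEM, KOPT-K1 and TALL-1, 3 further T-ALL lines, each had 1 uM BRM014 for 6 h or 0.01% DMSO for 6 h. BRM014 is an inhibitor of the ATPase activity of SMARCA4 and SMARCA2. The labels do not say whether the guide-bearing cells were clones or pools. All values are mRNA levels, and protein was not measured.

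The SWI/SNF (BAF) complexes use ATP to slide and evict nucleosomes, which opens enhancers and promoters to transcription factors. Their motor is either SMARCA4 or SMARCA2, paralogous ATPases that exclude each other within a complex, and cells that lose SMARCA4 can come to depend on SMARCA2. ARID1A and ARID1B are likewise paralogs that exclude each other, carry an AT-rich interaction (ARID) domain that binds DNA, and define the canonical complex, cBAF. The related complexes PBAF and ncBAF use the same ATPases but contain neither ARID1 protein. Since a guide works through small insertions and deletions in the gene, it can remove the protein with or without a fall in the mRNA.

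Each of the 4 genes has at least 1 listed start with a CpG-rich promoter window, and these windows are shown because the 4 mRNAs moved in the same direction in several comparisons below. Each is RefSeq sequence of build GRCh38.p14, plus strand, from 250 bases before to 50 bases after an annotated start. ARID1A has 1 listed window, and for the 3 genes with several the window with the most CpG was taken. Capitals mark matches on either strand to the GC box (GGGCGG), the ETS motif (CCGGAAG) and the AP-1 motif (TGACTCA).
ARID1A chr1:26695765-26696064: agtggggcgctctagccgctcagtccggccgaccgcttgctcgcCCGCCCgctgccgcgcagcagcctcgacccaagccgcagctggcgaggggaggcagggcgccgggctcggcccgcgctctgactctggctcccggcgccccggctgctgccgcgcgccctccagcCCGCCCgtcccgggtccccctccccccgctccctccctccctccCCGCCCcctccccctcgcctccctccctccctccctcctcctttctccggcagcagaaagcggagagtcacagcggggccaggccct
ARID1B chr6:156777128-156777427: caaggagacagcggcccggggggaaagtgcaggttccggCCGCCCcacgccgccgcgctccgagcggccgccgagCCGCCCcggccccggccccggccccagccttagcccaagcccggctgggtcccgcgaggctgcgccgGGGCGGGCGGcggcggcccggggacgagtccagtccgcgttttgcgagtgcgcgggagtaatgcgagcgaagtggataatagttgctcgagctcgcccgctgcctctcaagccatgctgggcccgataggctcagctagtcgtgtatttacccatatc
SMARCA4 chr19:10960780-10961079: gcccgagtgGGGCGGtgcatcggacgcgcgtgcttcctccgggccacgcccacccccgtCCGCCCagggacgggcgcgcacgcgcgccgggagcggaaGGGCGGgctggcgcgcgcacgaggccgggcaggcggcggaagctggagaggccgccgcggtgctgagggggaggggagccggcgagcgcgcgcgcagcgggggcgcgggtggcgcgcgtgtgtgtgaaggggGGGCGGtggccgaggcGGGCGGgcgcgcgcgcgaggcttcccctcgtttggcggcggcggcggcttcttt
SMARCA2 chr9:2015097-2015396: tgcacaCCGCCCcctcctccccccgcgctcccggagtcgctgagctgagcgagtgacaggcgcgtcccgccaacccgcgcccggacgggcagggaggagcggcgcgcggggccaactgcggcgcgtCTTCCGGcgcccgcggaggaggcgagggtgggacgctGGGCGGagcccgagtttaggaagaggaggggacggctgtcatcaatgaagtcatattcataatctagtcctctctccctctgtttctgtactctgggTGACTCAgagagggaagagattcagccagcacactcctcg
The windows held 33 CpG in ARID1A, 39 in ARID1B, 55 in SMARCA4 and 30 in SMARCA2, against a median of 14 over all 35116 windows of the table. That choice raises the counts of the 3 genes with several windows, and the richest window of each of 5191 such genes had a median of 27. The windows not printed held 5 CpG in ARID1B, at the start listed below for the gene, 5 in SMARCA4, and 3, 4 and 9 in SMARCA2. GC boxes numbered 3 in ARID1A, 4 in ARID1B (a pair of them overlapping), 5 in SMARCA4 and 2 in SMARCA2, and 45.0% of all windows held at least 1. SMARCA2 alone of the 4 printed windows held an ETS match, found in 10.3% of all windows, and an AP-1 match, found in 4.95%. No printed window held the E-box CACGTG (7.26% of all windows), the RUNX motif TGTGGT (13.1%) or the GATA motif AGATAA (10.3%). ARID1A lies on chromosome 1 at 26696015 to 26782104, ARID1B on chromosome 6 at 156776026 to 157210779, SMARCA4 on chromosome 19 at 10961030 to 11062273 and SMARCA2 on chromosome 9 at 2015347 to 2193620.

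Levels are in TPM, a measure of transcript abundance that is corrected for gene length and sums to 1000000 in every library. They count all isoforms of a gene together. Depth was 29.7 to 47.9 M reads in Jurkat libraries and 19.7 to 27.0 M in the other lines. Reads per library reached 5843 to 24357 for ARID1A, 2239 to 6691 for ARID1B, 3685 to 16726 for SMARCA4 and 489 to 3878 for SMARCA2, so the counting error was at most 4.52% for SMARCA2 and at most 2.11% for the other genes. Replicate libraries differed by more than counting noise, at 2.48 to 44.3 by chi-square over degrees of freedom. CCRF-CEM number 3 stood apart in both treatments, at 20.3 to 36.0 from numbers 1 and 2, which differed from each other by 4.73 and 4.92. TALL-1 DMSO number 3 also stood apart, at 43.6 and 44.3, as did Jurkat DMSO 8 d number 1, at 18.5 and 27.6. Jurkat 6 h number 2 stood apart in both treatments, at 11.9 and 10.7 with BRM014 and 10.7 and 12.9 with DMSO, where numbers 1 and 3 differed by 3.44 and 3.56. So did gARID1A number 1 (12.5 from both others, which differed by 4.76), gSMARCA4_A2 number 1 (11.3 and 13.7, others 3.42) and BRM014 8 d number 2 (9.24 and 8.17, others 2.48). All 9 markers of the T lineage reached 1 TPM in at least 3 libraries of each table, and the 4 B-cell and 5 myeloid markers stayed below 1 TPM in every library. Erythroid and megakaryocyte markers summed to 1.37 to 6.23 TPM in Jurkat and to at most 0.406 TPM in the other lines, and epithelial and fibroblast markers to 2.22 to 9.57 TPM in Jurkat and at most 9.85 TPM in the other lines. In Jurkat the kit kept no strand, so reads of antisense genes that overlap ARID1A, ARID1B and SMARCA2 cannot be told apart from theirs. In bulk RNA, fewer cells with a transcript and less transcript per cell cannot be told apart either.

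SMARCA4 and ARID1B mRNA fell in the groups with guides against them, the strongest changes of the 4 genes, while ARID1A fell slightly in gARID1A and was not lower in gARID1A_1B, and SMARCA2 overlapped its control in gSMARCA4_A2. SMARCA4, the main ATPase of these cells by mRNA, was at 45.3, 42.3 and 45.0 TPM in gSMARCA4 libraries, against 96.8, 95.5 and 100.2 TPM in gAAVS1 libraries. The groups were far apart, and the log2 fold change was -1.12 ± 0.06 (SE, limma, adjusted p = 1.6e-12). With both ATPases targeted, SMARCA4 was at 52.2, 47.5 and 49.8 TPM in gSMARCA4_A2, again below all gAAVS1 libraries, with a log2 fold change of -0.95 ± 0.06 (limma, adjusted p = 8.72e-12). Mean SMARCA4 TPM fell by 54.7% in gSMARCA4 and by 48.9% in gSMARCA4_A2. The 2 groups with a SMARCA4 guide did not overlap, and SMARCA4 was 0.17 ± 0.06 higher in gSMARCA4_A2 than in gSMARCA4 on the log2 scale (limma, adjusted p = 0.0235). That call was lost without gSMARCA4 number 2 (0.14, adjusted p = 0.101), gSMARCA4_A2 number 1 (0.14, 0.113) or gSMARCA4_A2 number 3 (0.17, 0.0512), and after median-ratio rescaling of the libraries (0.06, adjusted p = 0.499).

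ARID1B was at 12.9, 11.8 and 10.9 TPM in gARID1A_1B, against 23.2, 22.7 and 22.2 TPM in gAAVS1. These groups did not overlap. The log2 fold change was -0.88 ± 0.06 (limma, adjusted p = 5.48e-11), and mean TPM fell by 47.7%. The guide to ARID1A alone left ARID1B at 21.7, 22.5 and 22.4 TPM, which overlapped gAAVS1, with a log2 fold change of -0.03 and a 95% interval of -0.15 to 0.09 (limma, adjusted p = 0.771). ARID1A itself was at 79.2, 85.0 and 85.0 TPM in gARID1A, against 93.8, 95.1 and 94.2 TPM in gAAVS1. All 3 guide libraries were lower, by 12.0% on average, with a log2 fold change of -0.18 ± 0.05 (limma, adjusted p = 0.00734). In gARID1A_1B, however, ARID1A was at 106, 102 and 95.9 TPM, above every gAAVS1 library. The log2 fold change there was 0.10 ± 0.05 and missed the threshold (limma, adjusted p = 0.0965). It passed after median-ratio rescaling (0.13, adjusted p = 0.00831), with the 13 mitochondrial mRNAs left out (0.13, 0.0182), with limma-voom on recovered reads (0.15, 0.00578) and without gARID1A_1B number 3 (0.14, 0.0388). Between the 2 groups that both carried an ARID1A guide, ARID1A was 0.28 ± 0.05 higher in gARID1A_1B than in gARID1A (limma, adjusted p = 0.000162), and the groups did not overlap.

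SMARCA2 was at 22.4, 22.6 and 22.1 TPM in gSMARCA4_A2, against 22.7, 21.8 and 20.8 TPM in gAAVS1. The groups overlapped, and the log2 fold change was 0.04 with a 95% interval of -0.11 to 0.19 (limma, adjusted p = 0.669). In gSMARCA4, where SMARCA2 was not a target, it was at 27.0, 27.5 and 25.4 TPM, above every gAAVS1 library, with a log2 fold change of 0.28 ± 0.07 (limma, adjusted p = 0.00377). Set directly against gSMARCA4, the group with the added SMARCA2 guide was lower in all 3 libraries, by 0.24 ± 0.07 on the log2 scale (limma, adjusted p = 0.0121). That difference was also called after median-ratio rescaling (-0.35, adjusted p = 0.000192). The mRNA of ARID1A in gARID1A_1B and of SMARCA2 in gSMARCA4_A2 thus does not check the labels of these groups, since neither was below its control.

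**Figure D1:**
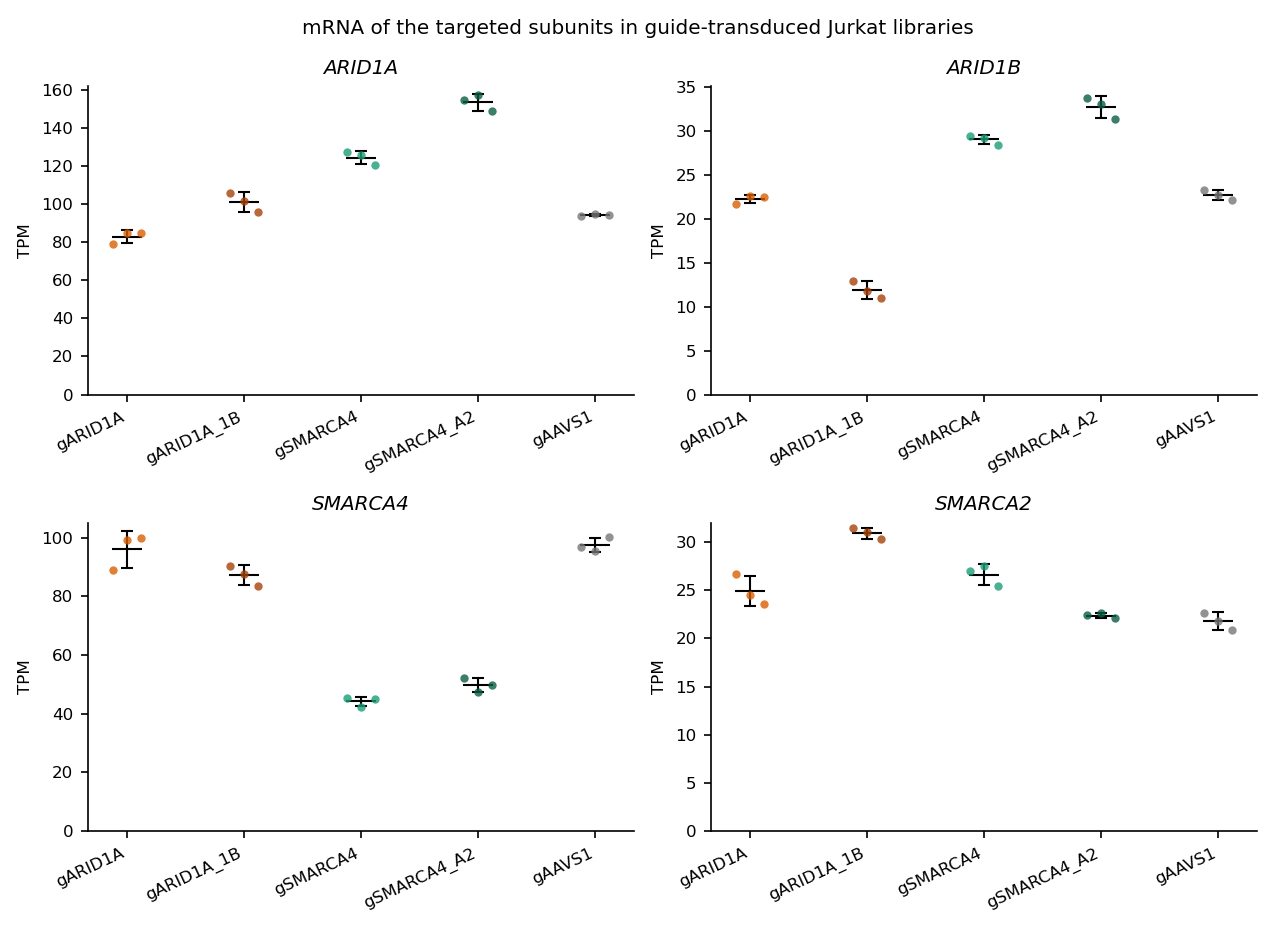
TPM of ARID1A, ARID1B, SMARCA4 and SMARCA2 (1 panel each, vertical axis from 0) in the 5 guide groups of Jurkat. Points are libraries, and bars are the mean ± SD of 3 libraries. SMARCA4 averaged 44.2 TPM in gSMARCA4 and 97.5 TPM in gAAVS1, ARID1B averaged 11.9 TPM in gARID1A_1B and 22.7 TPM in gAAVS1, and ARID1A was highest in gSMARCA4_A2 at 154 TPM.

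Both ARID1 genes were higher when the ATPases were targeted. ARID1A was at 128, 126 and 121 TPM in gSMARCA4, against 93.8, 95.1 and 94.2 TPM in gAAVS1, a log2 fold change of 0.40 ± 0.05 (limma, adjusted p = 5.96e-07). It was at 155, 158 and 149 TPM in gSMARCA4_A2, the highest ARID1A level of the 9 Jurkat groups, with a log2 fold change of 0.70 ± 0.05 (limma, adjusted p = 4.68e-11). The 3 groups gSMARCA4_A2, gSMARCA4 and gAAVS1 stood in that order with no overlap. ARID1B was at 29.4, 29.2 and 28.4 TPM in gSMARCA4 and at 33.8, 33.1 and 31.4 TPM in gSMARCA4_A2, against 23.2, 22.7 and 22.2 TPM in gAAVS1. Its log2 fold changes were 0.34 ± 0.06 in gSMARCA4 (limma, adjusted p = 4.88e-05) and 0.51 ± 0.06 in gSMARCA4_A2 (limma, adjusted p = 9.9e-08). The second guide went with a further rise of ARID1A, 0.30 ± 0.05 in gSMARCA4_A2 against gSMARCA4 (limma, adjusted p = 4.11e-05). For ARID1B the same difference was 0.17 ± 0.06 (limma, adjusted p = 0.0237), and the call was lost after median-ratio rescaling (0.06, adjusted p = 0.317) and without gSMARCA4 number 3 (0.15, 0.0775), gSMARCA4_A2 number 1 (0.15, 0.0935) or gSMARCA4_A2 number 2 (0.16, 0.0671).

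The ATPases in turn moved unequally when the ARID1 genes were targeted. SMARCA2 was at 31.4, 31.0 and 30.3 TPM in gARID1A_1B, against 22.7, 21.8 and 20.8 TPM in gAAVS1. All 3 libraries were higher, by 42.0% on average, with a log2 fold change of 0.49 ± 0.07 (limma, adjusted p = 1.3e-05). In gARID1A it was at 26.6, 24.5 and 23.6 TPM, above gAAVS1 without overlap, with a log2 fold change of 0.18 ± 0.07 that missed the threshold (limma, adjusted p = 0.0754). It passed after median-ratio rescaling (0.22, adjusted p = 0.0154) and with limma-voom (0.21, 0.0138). Between the groups, SMARCA2 was 0.30 ± 0.07 higher in gARID1A_1B than in gARID1A (limma, adjusted p = 0.00443). SMARCA4 was at 90.3, 87.8 and 83.7 TPM in gARID1A_1B, against 96.8, 95.5 and 100.2 TPM in gAAVS1, lower in all 3 libraries with a log2 fold change of -0.16 ± 0.06 (limma, adjusted p = 0.0329). That call was lost without gARID1A_1B number 2 (-0.16, adjusted p = 0.0626) or number 3 (-0.13, 0.132), and without gAAVS1 number 1 (-0.16, 0.0618) or number 3 (-0.14, 0.105). It was also lost after median-ratio rescaling (-0.13, 0.106), with mitochondrial mRNAs left out (-0.13, 0.0683), with limma-voom (-0.12, 0.102) and with no filter on low values (-0.16, 0.0515). In gARID1A, SMARCA4 was at 88.9, 99.1 and 100.1 TPM and overlapped gAAVS1, with a 95% interval of the log2 fold change of -0.14 to 0.10 (limma, adjusted p = 0.831). Against gARID1A, SMARCA4 in gARID1A_1B differed by -0.14 (limma, adjusted p = 0.102), which passed without gARID1A number 1 (-0.19, 0.0327).

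The 4 guide comparisons share the gAAVS1 libraries, so their values stand side by side and are not independent. Of the 4 genes, 1 passed the test in gARID1A, where 20.9% of all 17936 genes tested did. Of the 4, 3 passed in gARID1A_1B, where the share over all genes was 40.0%. All 4 passed in gSMARCA4, where 40.9% of all genes did, and 3 in gSMARCA4_A2, where 62.1% did. By size, the SMARCA4 change exceeded that of 98.3% of all genes tested in gSMARCA4 and of 93.6% in gSMARCA4_A2, and the ARID1B change exceeded that of 96.6% in gARID1A_1B. The ARID1A change exceeded that of 68.9% of genes in gARID1A, 82.3% in gSMARCA4 and 86.9% in gSMARCA4_A2. In gSMARCA4_A2 the median gene moved by 0.11 on the log2 scale, and median-ratio rescaling set it to -0.03, with 7337 genes higher and 3793 lower as deposited but 5002 and 6069 after rescaling. Relative to that, ARID1A changed by 0.54, ARID1B by 0.35 and SMARCA4 by -1.11 in gSMARCA4_A2 after rescaling, all still called, and SMARCA2 by -0.12 with its sign turned and no call in either scaling. In gSMARCA4 the split was 4507 higher and 2831 lower as deposited and 3758 and 3650 rescaled, and in gARID1A 1385 and 2363 as deposited and 1987 and 1949 rescaled. Between groups with 2 targets and those with 1, 3 of the 4 genes were called in gARID1A_1B against gARID1A, where 20.9% of genes were, and all 4 in gSMARCA4_A2 against gSMARCA4, where 38.8% were. In gSMARCA4_A2 against gSMARCA4 there were 4751 higher and 2202 lower calls as deposited and 2705 and 4327 after rescaling.

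The BRM014 libraries ask whether blocking the ATPase activity also goes with a change in these mRNAs. In Jurkat at 6 h the clearest change was in ARID1A. It was at 105, 111 and 101 TPM with BRM014, against 82.6, 78.0 and 82.5 TPM with DMSO, with no overlap and a log2 fold change of 0.37 ± 0.05 (limma, adjusted p = 9.98e-07). The 3 other genes changed little, in different directions, and close to the threshold. ARID1B was at 17.9, 19.6 and 17.4 TPM with BRM014, against 20.6, 20.2 and 20.2 TPM with DMSO, lower in all 3 libraries with a log2 fold change of -0.15 ± 0.06 (limma, adjusted p = 0.0379). SMARCA4 was at 114, 108 and 108 TPM with BRM014, against 103, 86.8 and 105 TPM with DMSO, higher without overlap by 0.16 ± 0.06 (limma, adjusted p = 0.0243). SMARCA2 was at 19.9, 24.5 and 20.5 TPM with BRM014, against 17.4, 20.5 and 18.5 TPM with DMSO, which overlapped, at 0.19 ± 0.07 (limma, adjusted p = 0.0372). All 4 genes passed the test, against 47.4% of all genes.

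With only the 6 h groups in the fit, none of ARID1B, SMARCA4 and SMARCA2 passed (limma, adjusted p = 0.0681 for ARID1B, 0.139 for SMARCA4 and 0.154 for SMARCA2). Without number 2 of both treatments, ARID1A (0.31, adjusted p = 0.000128) and ARID1B (-0.20, 0.0244) were called, and SMARCA4 (0.09, 0.220) and SMARCA2 (0.16, 0.0819) were not. Of the 6 fits that left out 1 library, ARID1B was called only without BRM014 number 2. Without BRM014 number 1 its change was -0.13 (adjusted p = 0.103) and without BRM014 number 3 it was -0.11 (0.162), while without DMSO number 1, 2 or 3 it was -0.14 (0.0922), -0.15 (0.0684) and -0.15 (0.0662). SMARCA4 was lost without DMSO number 2, its lowest library (0.08, adjusted p = 0.236), and without BRM014 number 1 (0.14, 0.0949). SMARCA2 was lost without BRM014 number 2, its highest library (0.10, adjusted p = 0.273), and without DMSO number 1 (0.14, 0.176) or number 3 (0.18, 0.0900). After median-ratio rescaling the values were 0.12 for SMARCA4 (adjusted p = 0.114) and 0.15 for SMARCA2 (0.0587), both not called. With no filter on low values, ARID1B (-0.15, 0.0637) and SMARCA2 (0.19, 0.0669) were not called either. A limma fit with the replicate number as a block did call ARID1B (-0.15, adjusted p = 0.0321), SMARCA4 (0.16, 0.0212) and SMARCA2 (0.19, 0.00801). The labels state no such pairing of libraries.

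At 8 d all 4 genes were higher with BRM014. ARID1A was at 118, 125 and 119 TPM with BRM014, against 81.5, 72.3 and 76.9 TPM with DMSO, a log2 fold change of 0.64 ± 0.05 (limma, adjusted p = 1.37e-10). SMARCA2 was at 31.6, 32.8 and 34.5 TPM with BRM014, against 23.4, 19.9 and 19.3 TPM with DMSO, a log2 fold change of 0.64 ± 0.07 (limma, adjusted p = 1.18e-07) and the highest SMARCA2 level of the 9 Jurkat groups. Neither gene's groups overlapped. ARID1B was at 27.8, 28.9 and 28.6 TPM with BRM014, against 23.5, 19.7 and 20.6 TPM with DMSO, likewise without overlap, at 0.41 ± 0.06 (limma, adjusted p = 2.28e-06). SMARCA4 was at 105, 103 and 100.2 TPM with BRM014, against 88.9, 89.7 and 91.6 TPM with DMSO, also without overlap, at 0.19 ± 0.06 (limma, adjusted p = 0.00834). The SMARCA4 call was lost after median-ratio rescaling (0.09, adjusted p = 0.208). The share called over all genes was 59.9%, with 6612 higher and 4127 lower as deposited and 5258 and 5509 after rescaling.

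The response at 8 d exceeded that at 6 h for 3 of the 4 genes. The difference between the 2 effects was 0.55 ± 0.08 on the log2 scale for ARID1B (limma, adjusted p = 8.28e-06), which was lower at 6 h and higher at 8 d. It was 0.45 ± 0.10 for SMARCA2 (limma, adjusted p = 0.00108) and 0.27 ± 0.07 for ARID1A (limma, adjusted p = 0.00232). For SMARCA4 it was 0.02, with a 95% interval of -0.15 to 0.19 (limma, adjusted p = 0.845). Over all genes, 44.2% had a difference between the times. DMSO at 8 d against DMSO at 6 h gave no call among the 4 genes, against 35.3% of all genes, or 6338 genes against 2056 genes with only these groups in the fit, and the changes of the 4 lay between -0.12 for SMARCA4 and 0.14 for SMARCA2. At an unadjusted p under 0.05, 0 of the 4 passed in limma, and limma-voom called 0. SMARCA4 was lower there without DMSO 6 h number 2 (-0.21, adjusted p = 0.00382). Without number 2 of both 6 h treatments SMARCA4 was lower (-0.21, 0.00414) and SMARCA2 higher (0.20, 0.0223), and the 3 differences between the times were all called as before.

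**Figure D2:**
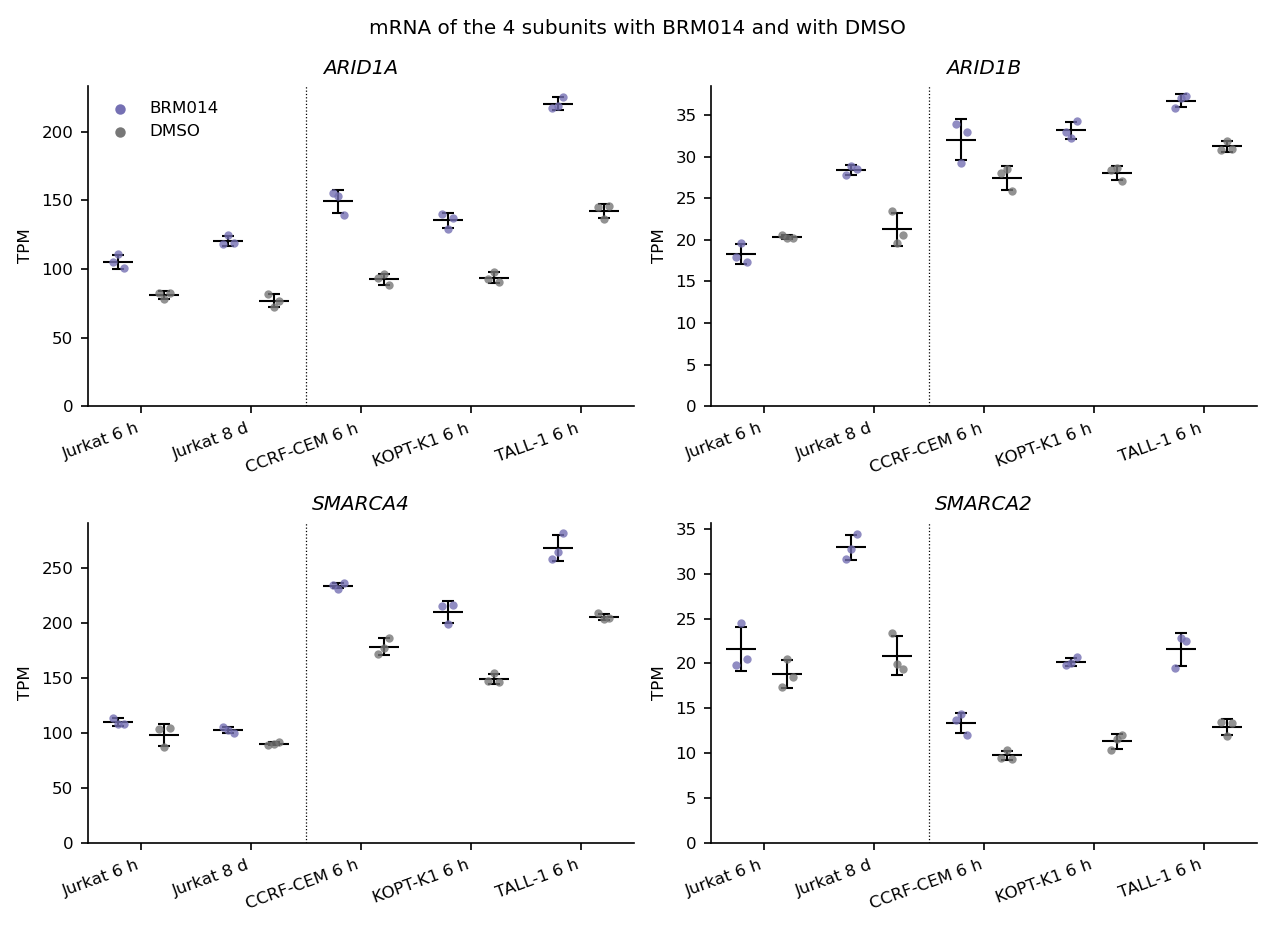
TPM of the 4 genes (1 panel each, vertical axis from 0) with BRM014 (purple, left of each pair) and with DMSO (grey, right of each pair). Points are libraries and bars the mean ± SD of 3 libraries, and the dotted line parts the Jurkat table from the table of the other lines, which were normalised separately. ARID1A was higher with BRM014 in all 5 pairs, from 105 TPM with BRM014 and 81.0 TPM with DMSO in Jurkat at 6 h to 221 TPM with BRM014 and 143 TPM with DMSO in TALL-1.

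In CCRF-CEM, KOPT-K1 and TALL-1, 6 h of BRM014 went with higher mRNA of all 4 genes. ARID1A was at 155, 153 and 139 TPM with BRM014 in CCRF-CEM, against 93.2, 96.2 and 88.3 TPM with DMSO, and the log2 fold change was 0.68 ± 0.05 (limma, adjusted p = 6.68e-08). It was at 139.9, 129 and 137 TPM with BRM014 in KOPT-K1, against 92.4, 98.0 and 90.4 TPM with DMSO, at 0.53 ± 0.05 (limma, adjusted p = 1.4e-06). It was at 217, 219 and 226 TPM with BRM014 in TALL-1, against 145, 137 and 146 TPM with DMSO, at 0.63 ± 0.05 (limma, adjusted p = 1.37e-07). No BRM014 library overlapped a DMSO library of its line, for ARID1A or for any of the 3 other genes. ARID1B had the smallest fold change of the 4 in each line, a difference between genes that was not tested. Its libraries were at 34.0, 29.3 and 32.9 TPM with BRM014 in CCRF-CEM, against 28.1, 28.5 and 25.8 TPM with DMSO. They were at 33.0, 32.3 and 34.3 TPM with BRM014 in KOPT-K1, against 28.4, 28.6 and 27.1 TPM with DMSO, and at 35.9, 37.1 and 37.3 TPM with BRM014 in TALL-1, against 30.9, 32.0 and 30.9 TPM with DMSO. The log2 fold changes of ARID1B were 0.21 ± 0.05 in CCRF-CEM, 0.24 ± 0.05 in KOPT-K1 and 0.23 ± 0.05 in TALL-1 (limma, adjusted p = 0.00394, 0.00282 and 0.00285). The CCRF-CEM call of ARID1B was lost without number 3 of both treatments (0.15, adjusted p = 0.0527), after median-ratio rescaling (0.13, 0.0526) and with only the CCRF-CEM groups in the fit (0.21, 0.0737).

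Both ATPases rose as well. SMARCA4 was at 235, 231 and 236 TPM with BRM014 in CCRF-CEM, against 172, 177 and 187 TPM with DMSO. It was at 215, 199 and 217 TPM with BRM014 in KOPT-K1, against 147, 155 and 146 TPM with DMSO, and at 258, 265 and 282 TPM with BRM014 in TALL-1, against 209, 204 and 204 TPM with DMSO. The log2 fold changes of SMARCA4 were 0.39 ± 0.05, 0.49 ± 0.05 and 0.38 ± 0.05 in CCRF-CEM, KOPT-K1 and TALL-1 (limma, adjusted p = 6.02e-06, 8.97e-07 and 7.58e-06). SMARCA2, the scarcer ATPase by mRNA, was at 13.7, 14.3 and 12.1 TPM with BRM014 in CCRF-CEM, against 9.50, 10.3 and 9.38 TPM with DMSO. It was at 19.8, 20.0 and 20.7 TPM with BRM014 in KOPT-K1, against 10.4, 11.6 and 12.0 TPM with DMSO, and at 19.5, 22.8 and 22.5 TPM with BRM014 in TALL-1, against 13.5, 11.9 and 13.4 TPM with DMSO. The log2 fold changes of SMARCA2 were 0.42 ± 0.08, 0.78 ± 0.08 and 0.70 ± 0.08 in CCRF-CEM, KOPT-K1 and TALL-1 (limma, adjusted p = 0.00039, 1.44e-06 and 3.03e-06). Without number 3 of both treatments, CCRF-CEM gave 0.70 for ARID1A, 0.42 for SMARCA4 and 0.46 for SMARCA2, all called. Leaving out TALL-1 DMSO number 3 kept all 4 calls in TALL-1, and leaving out Jurkat DMSO 8 d number 1 kept all 4 at 8 d. All 4 genes passed in each line, where 49.8% of the 16241 genes tested passed in CCRF-CEM, 38.1% in KOPT-K1 and 45.9% in TALL-1. Rescaling by the median ratio gave 3570 higher and 4233 lower calls in CCRF-CEM where the deposited values gave 4694 and 3398, 2744 and 3317 where they gave 3721 and 2466 in KOPT-K1, and 3474 and 3745 where they gave 4324 and 3137 in TALL-1.

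The size of the response was called different for SMARCA2 in 1 of 3 pairs of lines, and for no other member. Its effect was 0.37 ± 0.11 smaller in CCRF-CEM than in KOPT-K1, a difference of -0.37 on the log2 scale (limma, adjusted p = 0.0306), where 18.3% of all genes differed, or 2978 genes, against 5039 with the replicate number as a block. That call was lost without number 3 of both CCRF-CEM treatments (-0.32, adjusted p = 0.0579) and in 6 of the 12 fits that left out 1 library. These were the fits without CCRF-CEM DMSO number 2 (-0.33, 0.0745), CCRF-CEM BRM014 number 3 (-0.30, 0.0627), KOPT-K1 DMSO number 1 (-0.31, 0.0770) and KOPT-K1 BRM014 numbers 1, 2 and 3 (-0.38 with 0.0506, -0.37 with 0.0536 and -0.35 with 0.0633). TALL-1 minus CCRF-CEM gave 0.28 ± 0.11 for SMARCA2 (limma, adjusted p = 0.0905), which passed without TALL-1 BRM014 number 1 (0.35, 0.0378). TALL-1 minus KOPT-K1 gave -0.09, with a 95% interval of -0.32 to 0.15 (limma, adjusted p = 0.650). The 3 differences share libraries. Neither of the TALL-1 differences gave a call among the 4 genes, and the shares over all genes were 20.4% and 21.4%. With the replicate block TALL-1 minus CCRF-CEM had 5337 genes called, against 3311 without it. At an unadjusted p under 0.05, 1 of the 4, SMARCA2, passed in TALL-1 minus CCRF-CEM and 0 in TALL-1 minus KOPT-K1, and limma-voom called 0 in both. For ARID1A the largest difference was 0.15, in CCRF-CEM minus KOPT-K1, with a 95% interval of 0.00 to 0.31 (limma, adjusted p = 0.176). Jurkat was not fitted with these lines, because line, RNA extraction, library kit and table change together and cannot be told apart.

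Levels with DMSO also differed between the 3 lines. TALL-1 with DMSO held more of all 4 mRNAs than CCRF-CEM with DMSO, by 0.62 ± 0.05 for ARID1A, 0.18 ± 0.05 for ARID1B, 0.20 ± 0.05 for SMARCA4 and 0.37 ± 0.08 for SMARCA2 (limma, adjusted p = 3.77e-08, 0.00776, 0.00114 and 0.000527). TALL-1 exceeded KOPT-K1 by 0.60 ± 0.05 for ARID1A and 0.46 ± 0.05 for SMARCA4 (limma, adjusted p = 4.69e-08 and 2.83e-07), and by 0.15 ± 0.05 for ARID1B (limma, adjusted p = 0.0211). The ARID1B difference was lost after median-ratio rescaling (0.11, adjusted p = 0.0666) and without KOPT-K1 DMSO number 3 (0.13, 0.0788) or TALL-1 DMSO number 2 (0.14, 0.0689). SMARCA2 missed the threshold at 0.18 (limma, adjusted p = 0.0530) and passed with limma-voom (0.21, 0.0371) and without KOPT-K1 DMSO number 3 (0.22, 0.0394) or TALL-1 DMSO number 2 (0.23, 0.0241). CCRF-CEM exceeded KOPT-K1 in SMARCA4 by 0.26 ± 0.05 (limma, adjusted p = 0.000194). It was lower than KOPT-K1 in SMARCA2 by 0.20 ± 0.08, a log2 difference of -0.20 (limma, adjusted p = 0.0388) that was lost without CCRF-CEM DMSO number 1 (-0.18, 0.0991) or number 3 (-0.17, 0.104) and without KOPT-K1 DMSO number 2 (-0.18, 0.102) or number 3 (-0.16, 0.138). It was also lost with no filter (adjusted p = 0.0578), with only the groups compared (0.0633), with limma-voom (0.0737) and without number 3 of both CCRF-CEM treatments (0.0735). ARID1A and ARID1B overlapped between CCRF-CEM and KOPT-K1. Shares over all genes were 67.6% for TALL-1 against CCRF-CEM, 70.5% for TALL-1 against KOPT-K1 and 62.5% for CCRF-CEM against KOPT-K1.

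**Figure D3:**
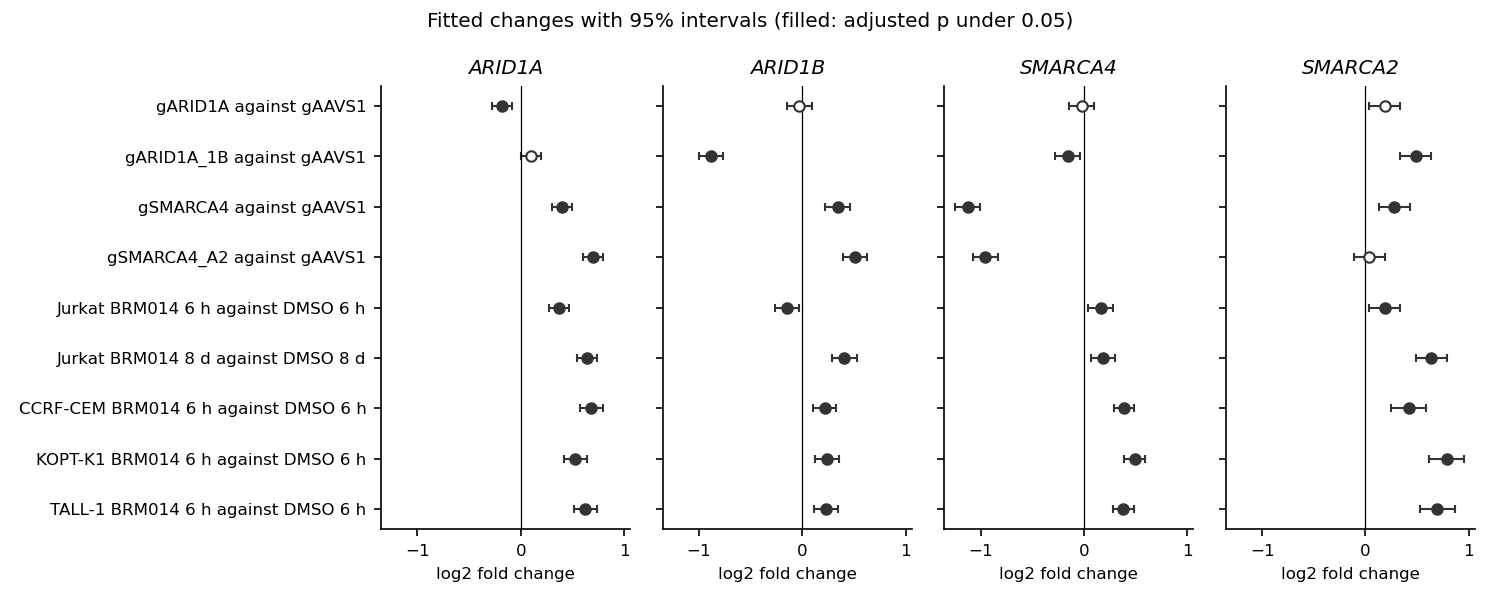
Log2 fold changes of the 4 genes (1 panel each) in the 9 comparisons with a control, with 95% intervals from limma. Filled points have an adjusted p under 0.05 and open points do not. SMARCA4 stands at -1.12 in gSMARCA4, ARID1B at -0.88 in gARID1A_1B, and ARID1A lies above 0 in every comparison but gARID1A.

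Ordered by mean level, ARID1A in Jurkat stood at 154 ± 4.52 TPM in gSMARCA4_A2, 125 ± 3.66 in gSMARCA4, 120.4 ± 3.54 with BRM014 for 8 d, 105 ± 5.04 with BRM014 for 6 h, 101 ± 5.07 in gARID1A_1B, 94.4 ± 0.697 in gAAVS1, 83.1 ± 3.38 in gARID1A, 81.0 ± 2.65 with DMSO for 6 h and 76.9 ± 4.61 with DMSO for 8 d (SD, n = 3 each). The ranges of neighbours overlapped between gSMARCA4 and BRM014 for 8 d, between BRM014 for 6 h and gARID1A_1B, and among the 3 lowest groups. The guide and inhibitor groups had different controls, and gAAVS1 stood above both DMSO groups. The order thus ranks levels and not effects, which are read against each group's own control. ARID1B ran from 32.7 ± 1.22 TPM in gSMARCA4_A2 to 11.9 ± 0.993 TPM in gARID1A_1B, with gAAVS1, gARID1A and both DMSO groups overlapping in the middle. SMARCA4 ran from 109.8 ± 3.41 TPM with BRM014 for 6 h to 44.2 ± 1.63 TPM in gSMARCA4, and the 2 groups with a SMARCA4 guide lay apart from all others while the groups between ranks 2 and 7 overlapped with their neighbours. SMARCA2 ran from 33.0 ± 1.43 TPM with BRM014 for 8 d to 18.8 ± 1.58 TPM with DMSO for 6 h, and its lowest 5 groups, gSMARCA4_A2 and gAAVS1 among them, overlapped with their neighbours. In the other table TALL-1 with BRM014 ranked highest for all 4 genes, at 221 ± 4.51, 36.7 ± 0.750, 268 ± 12.2 and 21.6 ± 1.86 TPM for ARID1A, ARID1B, SMARCA4 and SMARCA2. For SMARCA2 that group overlapped KOPT-K1 with BRM014.

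Because TPM is per length, the paralogs of a pair can be set side by side in each library. All isoforms of a gene count together, so the ratios, shares and sums compare genes and not full-length transcripts. SMARCA4 mRNA exceeded SMARCA2 mRNA in every library, but by very different factors. The ratio SMARCA4/SMARCA2 was 1.68, 1.54 and 1.77 in gSMARCA4 and 2.33, 2.10 and 2.26 in gSMARCA4_A2, against 4.27, 4.37 and 4.81 in gAAVS1. These groups lay apart, and SMARCA2 made up 37.6% of the summed ATPase mRNA in gSMARCA4 and 31.0% in gSMARCA4_A2, against 18.3% in gAAVS1. The sum of both ATPase mRNAs was nonetheless 70.8 ± 1.27 TPM in gSMARCA4 and 72.2 ± 2.25 TPM in gSMARCA4_A2, against 119 ± 1.84 TPM in gAAVS1. The SMARCA2 mRNA gained in gSMARCA4, 4.84 TPM on average, stood beside SMARCA4 mRNA that fell by 53.3 TPM. The ratio was also lower in gARID1A_1B, at 2.87, 2.83 and 2.76, and the sum was 118 ± 3.89 TPM. In gARID1A it was 3.34, 4.05 and 4.24, just below the gAAVS1 range.

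The ATPase ratio with BRM014 was read within each line and time, and its changes were not tested between them. It was 3.32, 3.13 and 2.91 with BRM014 for 8 d, against 3.80, 4.51 and 4.74 with DMSO for 8 d, without overlap. At 6 h in Jurkat it was 5.72, 4.40 and 5.26 with BRM014, against 5.94, 4.23 and 5.65 with DMSO, which overlapped. Its difference there was -0.03 on the log2 scale, and it was 0.072 without BRM014 number 2, above 0 without DMSO number 1 or 3 as well. In the other lines SMARCA2 was a smaller part. Between Jurkat and these lines, however, line, RNA extraction, library kit and table change together and cannot be told apart. The ratio was 17.2, 16.1 and 19.6 with BRM014 in CCRF-CEM, against 18.1, 17.2 and 19.9 with DMSO, which overlapped. It was 10.9, 9.93 and 10.5 with BRM014 in KOPT-K1, against 14.2, 13.3 and 12.2 with DMSO, and 13.3, 11.6 and 12.5 with BRM014 in TALL-1, against 15.5, 17.2 and 15.3 with DMSO. Both of these lines were lower with BRM014 without overlap, and the summed ATPase mRNA was higher, at 230.3 ± 10.1 TPM with BRM014 and 161 ± 4.85 TPM with DMSO in KOPT-K1, and at 289.8 ± 13.5 TPM with BRM014 and 219 ± 3.50 TPM with DMSO in TALL-1.

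For the ARID1 pair, the ratio ARID1A/ARID1B was 8.20, 8.67 and 8.76 in gARID1A_1B, against 4.04, 4.19 and 4.25 in gAAVS1. ARID1B thus made up 10.5% of the summed ARID1 mRNA in gARID1A_1B and 19.4% in gAAVS1, although both genes were targeted in gARID1A_1B. The summed ARID1 mRNA was 113 ± 6.05 TPM in gARID1A_1B and 105 ± 3.82 TPM in gARID1A, against 117 ± 0.746 TPM in gAAVS1. It was 154 ± 4.18 TPM in gSMARCA4 and 187 ± 5.55 TPM in gSMARCA4_A2, and in those groups the ratio was 4.34, 4.30 and 4.24 in gSMARCA4, which overlapped gAAVS1, and 4.58, 4.77 and 4.74 in gSMARCA4_A2, which lay above it. With BRM014 the ratio was higher in every line and time without overlap. It averaged 5.76 with BRM014 and 3.98 with DMSO in Jurkat at 6 h, and 4.23 with BRM014 and 3.63 with DMSO at 8 d. In CCRF-CEM it averaged 4.68 with BRM014 and 3.37 with DMSO, in KOPT-K1 4.08 with BRM014 and 3.34 with DMSO, and in TALL-1 6.00 with BRM014 and 4.57 with DMSO. Exact two-sided permutation tests of the 22 log2 ratio differences gave p = 0.10 wherever groups did not overlap, the smallest that 3 against 3 libraries allow, and 0.116 after Benjamini-Hochberg adjustment.

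**Figure D4:**
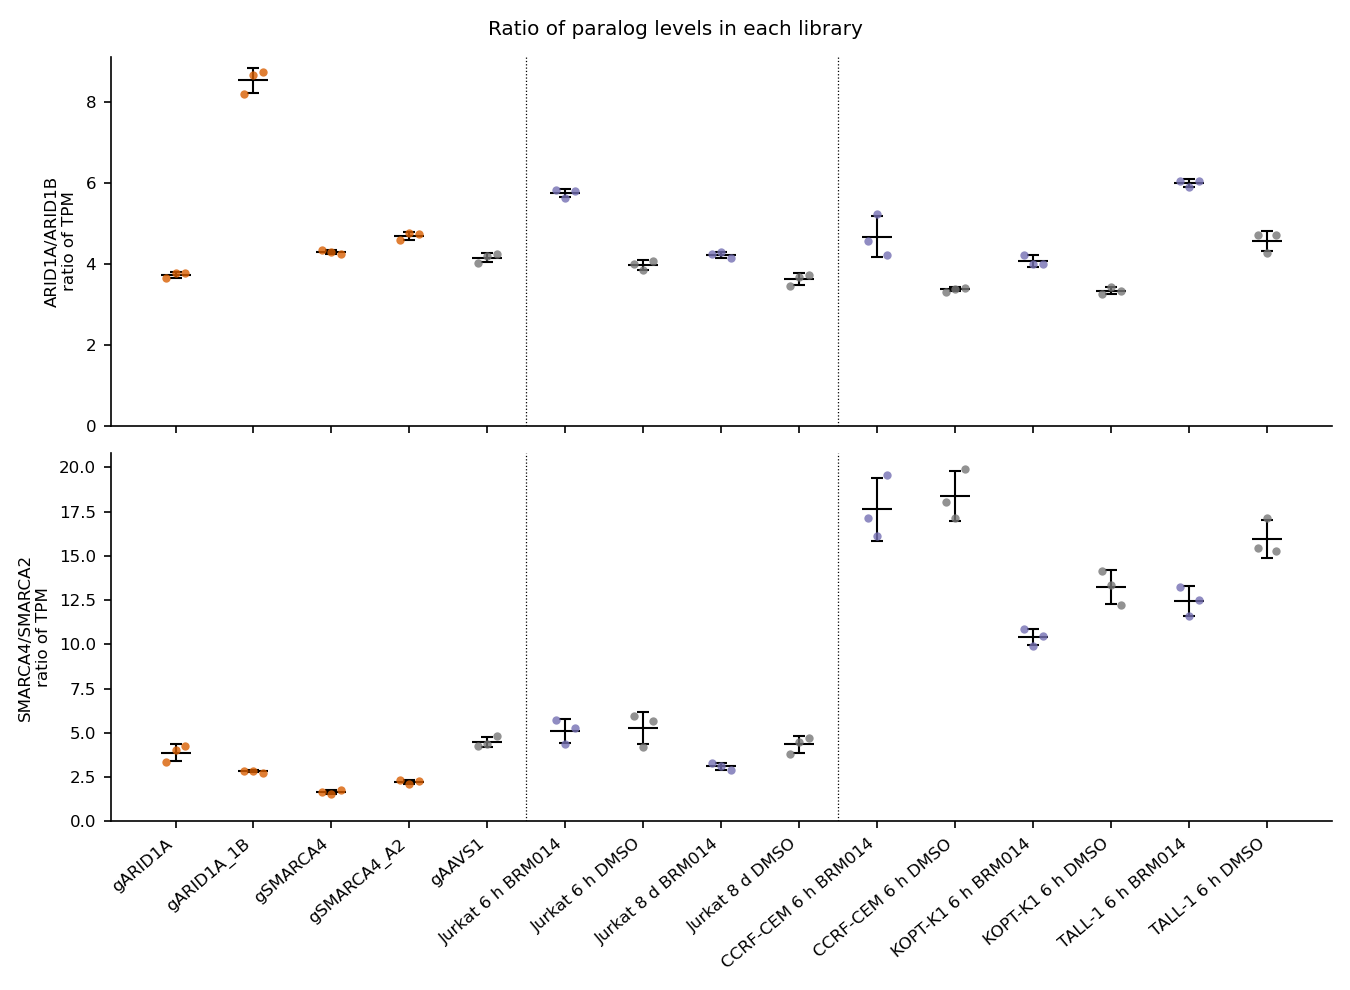
Ratio of TPM within each library, ARID1A/ARID1B above and SMARCA4/SMARCA2 below (vertical axes from 0). Points are libraries of guide groups (orange), BRM014 groups (purple) and control groups (grey), bars are the mean ± SD of 3 libraries, and dotted lines part the guide groups, the Jurkat inhibitor groups and the other lines. SMARCA4/SMARCA2 averaged 1.66 in gSMARCA4 and 4.48 in gAAVS1, and ARID1A/ARID1B averaged 8.54 in gARID1A_1B and 4.16 in gAAVS1.

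The remaining subunits of the BAF complexes were read beside the 4 genes. Of 18 listed cBAF and shared subunits 17 could be tested, ACTL6B being too low. Over all genes tested, 7.72% were called higher and 13.2% lower in gARID1A, 17.0% and 23.1% in gARID1A_1B, 25.1% and 15.8% in gSMARCA4, and 40.9% and 21.1% in gSMARCA4_A2. With BRM014 they were 26.8% and 20.7% at 6 h and 36.9% and 23.0% at 8 d in Jurkat, 28.9% and 20.9% in CCRF-CEM, 22.9% and 15.2% in KOPT-K1, and 26.6% and 19.3% in TALL-1. Of the subunits, in gARID1A none was higher and 3 were lower, in gARID1A_1B 2 were higher and 5 lower, and the medians of -0.01 and -0.04 lay near the median of all genes (-0.03 in both). DPF3, a PHD-finger subunit, averaged 3.49 ± 0.197 TPM in gARID1A and 2.59 ± 0.370 TPM in gARID1A_1B, against 6.09 ± 0.411 TPM in gAAVS1 (SD, n = 3 each), with log2 fold changes of -0.66 and -0.99 (limma, adjusted p = 5.58e-05 and 8.43e-08). BCL7A, an accessory subunit, averaged 18.6 and 17.3 TPM there, against 25.3 TPM in gAAVS1, with -0.42 and -0.53 (limma, adjusted p = 1.82e-05 and 3.25e-07). These falls were not particular to the ARID1 guides. In gSMARCA4, BCL7A was at -0.43 and DPF3 at -0.34 (limma, adjusted p = 5.52e-06 and 0.0110). With BRM014 at 6 h in Jurkat, BCL7A was at -0.48 and DPF3 at -0.30 (limma, adjusted p = 7.19e-07 and 0.0185). In gSMARCA4 and in gSMARCA4_A2 alike, 10 subunits were higher and 3 lower, with medians of 0.13 and 0.14 beside 0.04 and 0.11 over all genes. After median-ratio rescaling the gSMARCA4_A2 list turned to 4 higher and 7 lower (median -0.02, all genes -0.03), and gSMARCA4 had 6 higher and 3 lower. SMARCD3, an alternative of the SMARCD subunits, averaged 39.0 ± 2.38 TPM in gSMARCA4 and 43.9 ± 1.53 TPM in gSMARCA4_A2, against 25.0 ± 1.11 TPM in gAAVS1, with 0.62 and 0.79 (limma, adjusted p = 3.99e-05 and 7.4e-07). SS18, a subunit shared by cBAF and ncBAF, rose by 0.53 in gSMARCA4_A2 (limma, adjusted p = 2.63e-10).

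With BRM014 the same list had more higher than lower calls in each comparison as deposited. In Jurkat 5 subunits were higher and 3 lower at 6 h (median 0.02, all genes 0.04), and 12 were higher and 2 lower at 8 d (median 0.20, all genes 0.08). SMARCD3 averaged 52.8 TPM with BRM014 for 8 d and 24.8 TPM with DMSO, a log2 fold change of 1.07 (limma, adjusted p = 7.8e-09). ACTB, which encodes the actin of the complex and of the cytoskeleton, fell by 0.30 at 6 h and rose by 0.59 at 8 d in Jurkat (limma, adjusted p = 7.12e-05 and 3.25e-09). In CCRF-CEM 8 were higher and 3 lower, in KOPT-K1 7 and 2, and in TALL-1 6 and 3, with medians of 0.14, 0.11 and 0.06 beside 0.05, 0.04 and 0.03 over all genes. Rescaled, the counts were 8 higher and 3 lower at 8 d in Jurkat, and 5 and 4 in CCRF-CEM, 4 and 3 in KOPT-K1 and 6 and 5 in TALL-1. DPF2, a PHD-finger subunit of cBAF, rose by 0.68 in CCRF-CEM, where it averaged 55.0 TPM with BRM014 and 34.0 TPM with DMSO (limma, adjusted p = 8.73e-08).

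Among 7 subunits of PBAF and ncBAF, BICRAL stood out by size. BICRAL, which helps to define ncBAF, averaged 14.9 ± 0.864 TPM in gARID1A_1B, 21.5 ± 0.738 TPM in gSMARCA4 and 31.4 ± 1.41 TPM in gSMARCA4_A2, against 10.3 ± 0.200 TPM in gAAVS1, with log2 fold changes of 0.50, 1.00 and 1.52 (limma, adjusted p = 8.77e-06, 3.88e-10 and 1.61e-13). With BRM014 it rose by 1.47 in Jurkat at 6 h and 1.37 at 8 d, by 1.77 in CCRF-CEM, 1.62 in KOPT-K1 and 1.61 in TALL-1. Its paralog BICRA rose in gSMARCA4 (0.37) and gSMARCA4_A2 (0.81), at 6 h (0.30) and 8 d (0.66) in Jurkat, in KOPT-K1 (0.44) and in TALL-1 (0.54). ARID2, a defining subunit of PBAF, fell by 0.38 at 6 h and by 0.45 at 8 d in Jurkat, and rose by 0.38 in CCRF-CEM (limma, adjusted p = 0.000829, 8.96e-05 and 9.5e-05). It was also lower in gARID1A_1B, with a log2 fold change of -0.41 (limma, adjusted p = 0.000524), still called after median-ratio rescaling (-0.38). The list as a whole had 4 higher and none lower in gSMARCA4, 3 higher and 1 lower in gSMARCA4_A2, 1 and 1 in gARID1A, and 2 and 3 in gARID1A_1B. With BRM014 it had 3 and 3 at 6 h and 3 and 2 at 8 d in Jurkat, and 3 and 1 in each of the other lines. Its medians were 0.05, 0.05, 0.18 and 0.12 in gARID1A, gARID1A_1B, gSMARCA4 and gSMARCA4_A2, -0.06 at 6 h and 0.12 at 8 d in Jurkat, and -0.00071, 0.11 and 0.08 in CCRF-CEM, KOPT-K1 and TALL-1. Rescaled, gSMARCA4_A2 had 2 and 2, as did Jurkat at 8 d and KOPT-K1. As deposited, 25.1% of all genes were higher in gSMARCA4 and 40.9% in gSMARCA4_A2, with medians of 0.04 and 0.11 over all genes.

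The other nucleosome remodelling ATPases, 16 genes all tested, moved in both directions. In gSMARCA4 5 were higher and 4 lower, in gSMARCA4_A2 6 and 5, in gARID1A none and 5, in gARID1A_1B 1 and 8. At 6 h and 8 d of BRM014 in Jurkat 4 and 6 were higher with 6 and 7 lower, and in CCRF-CEM, KOPT-K1 and TALL-1 7, 7 and 5 were higher with 4, 1 and 3 lower. The medians were 0.0030 in gSMARCA4, 0.07 in gSMARCA4_A2, -0.09 in gARID1A, -0.13 in gARID1A_1B, -0.03 at 6 h and -0.02 at 8 d in Jurkat, and -0.0093, 0.13 and 0.09 in CCRF-CEM, KOPT-K1 and TALL-1. In gARID1A_1B the 8 lower of 16 stood beside 23.1% of all genes. Rescaling turned the split to more lower than higher in gSMARCA4 (4 higher, 6 lower), gSMARCA4_A2 (4 and 7), CCRF-CEM (4 and 8) and TALL-1 (4 and 5). CHD4, the ATPase of the NuRD complex, fell by 0.82 in Jurkat at 6 h, by 1.88 in CCRF-CEM, by 1.94 in KOPT-K1 and by 3.88 in TALL-1, where it averaged 14.9 ± 1.52 TPM with BRM014 and 233 ± 9.11 TPM with DMSO, while the related CHD2 rose by 0.52, 0.91, 0.77 and 0.84 in these lines. Among 11 other ARID-domain genes, of which ARID3C was too low to test in Jurkat, 8 of 10 were higher in gSMARCA4 (1 lower), 9 of 10 in gSMARCA4_A2 (1 lower), 4 of 10 in gARID1A (none lower) and 3 of 10 in gARID1A_1B (2 lower). With BRM014 5 of 10 were higher at 6 h (2 lower) and 9 of 10 at 8 d (none lower), 7 of 11 in CCRF-CEM (2 lower), 5 of 11 in KOPT-K1 (1 lower) and 8 of 11 in TALL-1 (2 lower). The medians were 0.35 in gSMARCA4, 0.59 in gSMARCA4_A2, -0.07 in gARID1A, below 0 although its calls were all higher, 0.08 in gARID1A_1B, 0.13 at 6 h and 0.47 at 8 d in Jurkat, and 0.28, 0.05 and 0.63 in CCRF-CEM, KOPT-K1 and TALL-1. After rescaling this list still had 8 higher in gSMARCA4 and 9 in gSMARCA4_A2 and at 8 d, while KOPT-K1 had 2 higher and 3 lower. As deposited, the shares of all genes called higher were 25.1% in gSMARCA4, 40.9% in gSMARCA4_A2, 36.9% at 8 d and 22.9% in KOPT-K1. Medians over all genes were 0.04, 0.11, 0.08 and 0.04 there. KDM5B, a histone demethylase, averaged 60.3 TPM in gSMARCA4_A2, against 25.2 TPM in gAAVS1, with a log2 fold change of 1.23 (limma, adjusted p = 4.68e-11). ARID5A, an RNA-binding regulator of inflammatory transcripts, fell with 6 h of BRM014, with log2 fold changes of -1.32, -2.04, -0.68 and -1.89 in Jurkat, CCRF-CEM, KOPT-K1 and TALL-1.

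**Figure D5:**
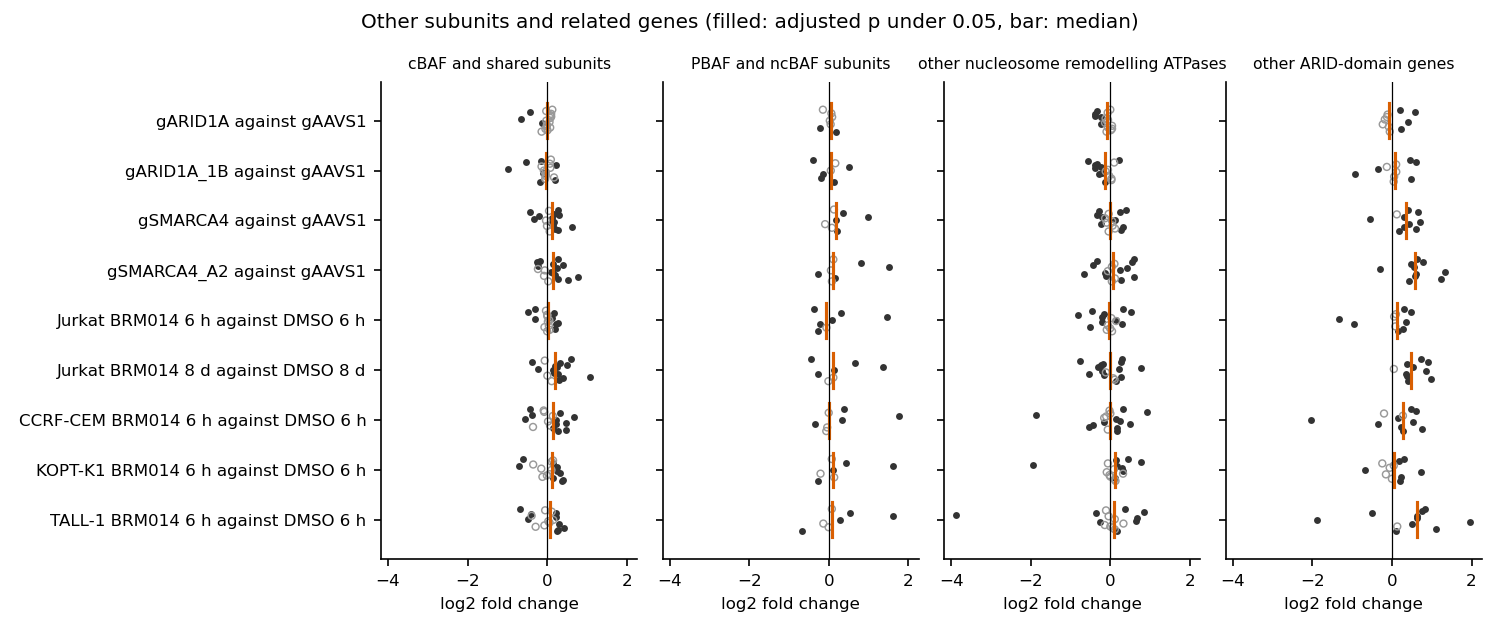
Log2 fold changes of the other listed genes in the 9 comparisons with a control, 1 panel per list. Each circle is a gene, filled where the adjusted p was under 0.05 in limma, and the orange bar is the list's median. BICRAL is the rightmost circle of the PBAF and ncBAF panel in 8 of 9 rows, up to 1.77 in CCRF-CEM, and CHD4 the leftmost of the ATPases in TALL-1 at -3.88.

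Genes whose levels ran most like those of each member are given as a description. Over the 27 Jurkat libraries and 12173 genes with a mean of at least 5 TPM, ARID1A was most like TBC1D20 (Pearson r = 0.97 on log2(TPM + 1)), then ATF7, GBF1, PPP1R3D and CRAMP1. SMARCA2 was most like PTPRC, the leukocyte phosphatase CD45 (r = 0.91), then SH3KBP1, TNFAIP8L2, ARPC2 and ERFE. SMARCA4 was most like OAZ1 (0.92), then UBL5 (0.87), NDUFA11 (0.82), ZNF317 (0.81) and ATPAF1 (0.80). ARID1B was most like LDLRAD4 (0.93), then SLC15A4, LOC727751, LOC102724135 and GOLGA2P10. No member was among the 5 genes most like another there, and ARID1A correlated with ARID1B at 0.53, with SMARCA2 at 0.39 and with SMARCA4 at -0.64. The Jurkat libraries include the groups with guides to these genes. All correlations there thus repeat the guide effects in part, such as low SMARCA4 beside high ARID1A in gSMARCA4 and gSMARCA4_A2. Over the 18 libraries of the other lines and 11058 genes, with each line's mean taken off, all pairs of members correlated at 0.86 to 0.96, though SMARCA4 ranked only 272 among the genes most like ARID1A, and ARID1A 112 among those most like SMARCA4. With those means off, the libraries differ only by treatment and replicate, so the correlations largely restate the rises with BRM014 given above. BICRAL was among the 5 genes most like ARID1A (0.99) and among the 5 most like SMARCA4 (0.98). These libraries share lines, treatments and kits, so the points are not independent.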

How the data were processed

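RNA-seq was read from 45 libraries in 15 groups of 3, grouped by the labels. The authors deposited TPM per gene in 2 tables, aligned to hg38 with HISAT2 2.2.1, counted with featureCounts 2.0.3 and processed with DESeq2 1.38.2, per the submitters' processing notes, which do not say how each was set. Jurkat RNA was extracted with Maxwell and sequenced from a kit that keeps no strand, and RNA of the other lines was extracted with RNeasy and sequenced from a directional kit, per the labels' protocols. Every library sums to 1000000 TPM, and mitochondrial mRNAs took 20.0 to 24.9% of it in Jurkat but 4.99 to 8.04% in the 3 further lines, which lowers all other values by that share. TPM times gene length gave whole reads for 100% of values (tolerance 0.01), from which depth was recovered.

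For this text, limma 3.58.1 in R 4.3.3 was fitted to log2(TPM + 1) over genes that reached 1 TPM in 3 or more libraries, 17936 in Jurkat and 16241 in the other lines. All groups of a table shared 1 fit, with 18 and 12 residual degrees of freedom, trended and robust. The threshold was a Benjamini-Hochberg adjusted p under 0.05 over all genes tested. The scale of log2(TPM + 1) understates changes of low genes. Comparisons numbered 19, and the fit was tested on simulated data. Limma-voom on recovered reads, tried as an alternative, called from 2381 genes (CCRF-CEM minus KOPT-K1) to 11500 genes (TALL-1 against KOPT-K1 with DMSO), within 1.5 times the count of limma in each of the 19 comparisons. Other alternatives were a pseudocount of 0.1, no filter, a filter at 5 TPM, median-ratio rescaling, mitochondrial mRNAs left out, an untrended fit, only the groups compared, the replicate number as a block, and each library left out. Leaving out CCRF-CEM number 3, or Jurkat 6 h number 2, of both treatments was chosen after seeing the data.

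The labels call the libraries of a group biological replicates, and nothing says that they came from separate cultures, so p-values measure the spread between these libraries, which may be technical. In CCRF-CEM, same-numbered BRM014 and DMSO libraries deviated together (correlations 0.12, 0.29 and 0.45). In no other comparison did every same-number correlation exceed the threshold of 0.1. Below that threshold a pairing is not excluded, since all 3 numbers also went best with their own in gARID1A_1B, Jurkat at 6 h, KOPT-K1 and TALL-1. The genes, lists and tests were chosen with earlier results of these data known. Genes named from the lists are up to 3 per list and comparison with the largest change among those called, and the genes most like each member are the 5 with the highest correlation. Gene locations and promoter sequences are from RefSeq, GRCh38.p14, matched by symbol for all 4 genes. Guide sequences were not used here. Python 3.11.15 and matplotlib 3.10.9 drew the figures.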

Additional observations from a re-analysis of the deposited data

Results flagged for a closer look

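ARID1A, ARID1B and SMARCA2 responded differently to BRM014 at 8 d and at 6 h in Jurkat, by a test of the difference between the 2 effects. The effect at 8 d exceeded that at 6 h by 0.55 ± 0.08 for ARID1B, 0.45 ± 0.10 for SMARCA2 and 0.27 ± 0.07 for ARID1A on the log2 scale (limma, adjusted p = 8.28e-06, 0.00108 and 0.00232). SMARCA2 responded differently in CCRF-CEM and KOPT-K1, by -0.37 ± 0.11 in CCRF-CEM minus KOPT-K1 (limma, adjusted p = 0.0306), and this difference was lost in 6 of 12 fits that left out 1 library.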

How the results depend on the processing

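Over 716 values of the 4 genes under other settings, 669 kept their direction and their side of the threshold, 25 lost a call, 11 gained one and 11 turned sign, all 11 of them uncalled. With 1 library left out, 493 of 552 did. All own-target falls of SMARCA4 and ARID1B, and all ARID1A rises with BRM014 or with a SMARCA4 guide, were called in every alternative. The cause of the changes below was not tested. Depth did not limit the 4 genes, since 489 reads was the least for any of them, but 3 libraries a group limit precision.

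Median-ratio rescaling gave the following, with the adjusted p in brackets. In gARID1A, ARID1B was at 0.00812 (0.922), SMARCA4 at 0.016 (0.893) and SMARCA2 at 0.22 (0.0154). In gARID1A_1B, ARID1A was at 0.13 (0.00831) and SMARCA4 at -0.13 (0.106). In gSMARCA4_A2, SMARCA2 was at -0.12 (0.121), and against gSMARCA4 ARID1B was at 0.056 (0.317) and SMARCA4 at 0.058 (0.499). In Jurkat, SMARCA4 was at 0.12 (0.114) and SMARCA2 at 0.15 (0.0587) at 6 h, and SMARCA4 at 0.093 (0.208) at 8 d and at -0.030 (0.814) in 8 d minus 6 h. ARID1B was at 0.13 (0.0526) in CCRF-CEM, 0.11 (0.0666) in TALL-1 against KOPT-K1 with DMSO and 0.00497 (0.981) in TALL-1 minus KOPT-K1, and SMARCA4 was at 0.014 (0.904) in TALL-1 minus CCRF-CEM. Without mitochondrial mRNAs, ARID1A was at 0.13 (0.0182) and SMARCA4 at -0.13 (0.0683) in gARID1A_1B. With no filter, SMARCA4 was at -0.16 (0.0515) in gARID1A_1B, ARID1B at -0.15 (0.0637) and SMARCA2 at 0.19 (0.0669) in Jurkat at 6 h, and SMARCA2 at -0.20 (0.0578) in CCRF-CEM against KOPT-K1 with DMSO. With only the groups compared, ARID1B was at -0.15 (0.0681), SMARCA4 at 0.16 (0.139) and SMARCA2 at 0.19 (0.154) in Jurkat at 6 h, ARID1B at 0.21 (0.0737) in CCRF-CEM and SMARCA2 at -0.20 (0.0633) in CCRF-CEM against KOPT-K1 with DMSO. In that fit 2056 genes differed between DMSO at 8 d and at 6 h, against 6338 in the fit of all groups.

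Limma-voom gave SMARCA2 at 0.21 (0.0138) in gARID1A, ARID1A at 0.15 (0.00578) and SMARCA4 at -0.12 (0.102) in gARID1A_1B, ARID1A at 0.00418 (0.956) and SMARCA2 at -0.19 (0.0737) in CCRF-CEM against KOPT-K1 with DMSO, SMARCA2 at 0.21 (0.0371) in TALL-1 against KOPT-K1 with DMSO, SMARCA4 at 0.012 (0.935) in TALL-1 minus CCRF-CEM and ARID1B at 0.0097 (0.959) in TALL-1 minus KOPT-K1. Without CCRF-CEM number 3 of both treatments, ARID1B was at 0.15 (0.0527) in CCRF-CEM, SMARCA2 at -0.32 (0.0579) in CCRF-CEM minus KOPT-K1, and ARID1A at 0.018 (0.768), ARID1B at 0.011 (0.875) and SMARCA2 at -0.17 (0.0735) in CCRF-CEM against KOPT-K1 with DMSO. Without Jurkat 6 h number 2 of both treatments, SMARCA4 was at 0.090 (0.220) and SMARCA2 at 0.16 (0.0819) at 6 h, and in DMSO at 8 d against 6 h SMARCA4 was at -0.21 (0.00414) and SMARCA2 at 0.20 (0.0223).

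Same-numbered libraries of the guide groups correlated with gAAVS1 at -0.01 to 0.22, those of Jurkat at 6 h at 0.09 to 0.30, at 8 d at -0.08 to 0.00, of KOPT-K1 at 0.04 to 0.11 and of TALL-1 at 0.03 to 0.17. All 3 numbers went best with their own in gARID1A_1B, Jurkat at 6 h, CCRF-CEM, KOPT-K1 and TALL-1, a hint from the data and not the design. The replicate block moved SMARCA2 past the threshold in gARID1A (0.18, 0.0187), in DMSO at 8 d against 6 h (0.14, 0.0484) and in TALL-1 against KOPT-K1 with DMSO (0.18, 0.0433), and changed no other call of the 4 genes, the 4 CCRF-CEM calls included. With the replicate block, 5039 genes differed in CCRF-CEM minus KOPT-K1 against 2978 without it, 5337 against 3311 in TALL-1 minus CCRF-CEM, and 5436 against 3472 in TALL-1 minus KOPT-K1.

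Leaving out 1 library at a time gave these ranges. In guide groups against gAAVS1 they were -0.053 to 0.031 for SMARCA4 in gARID1A, and 0.067 to 0.14 for ARID1A and -0.18 to -0.13 for SMARCA4 in gARID1A_1B. SMARCA4 ran from -0.19 to -0.11 in gARID1A_1B against gARID1A, and in gSMARCA4_A2 against gSMARCA4 ARID1B ran from 0.15 to 0.20 and SMARCA4 from 0.14 to 0.20. In Jurkat at 6 h, ARID1B ran from -0.20 to -0.11, SMARCA4 from 0.076 to 0.21, SMARCA2 from 0.10 to 0.25 and the log2 ratio SMARCA4/SMARCA2 from -0.18 to 0.072. SMARCA4 ran from -0.024 to 0.11 in 8 d minus 6 h, and in DMSO at 8 d against 6 h ARID1B ran from -0.015 to 0.11 and SMARCA4 from -0.21 to -0.072. In CCRF-CEM against KOPT-K1 with DMSO, ARID1A ran from -0.044 to 0.018, ARID1B from -0.056 to 0.011 and SMARCA2 from -0.25 to -0.16, and in TALL-1 against KOPT-K1 with DMSO ARID1B ran from 0.13 to 0.17 and SMARCA2 from 0.12 to 0.23. Among differences of effects, CCRF-CEM minus KOPT-K1 gave -0.063 to 0.041 for ARID1B and -0.42 to -0.30 for SMARCA2, TALL-1 minus CCRF-CEM gave -0.050 to 0.055 for ARID1B, -0.045 to 0.019 for SMARCA4 and 0.21 to 0.35 for SMARCA2, and TALL-1 minus KOPT-K1 gave -0.028 to 0.015 for ARID1B.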
